A study of Mus musculus with 3 samples.

Results

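The 10 genes described here encode nuclear transport receptors, the carrier proteins that take cargo through nuclear pores. They were 10 of the 31040 genes counted in single nuclei of mouse lumbar spinal cord. Xpo1 was chosen by its own values, since earlier results of these data showed it higher in several sub-types of SOD1G93A neurons. Its genotype values in neurons and in neuron sub-types are therefore given as a description, without a test. The other 9, Xpo4, Xpo5, Xpo6, Xpo7, Cse1l, Tnpo1, Tnpo3, Kpnb1 and Ipo7, were taken as members of the same family and found by their gene symbols.

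Nuclear transport receptors bind their cargo, cross the nuclear pore and are steered by the small GTPase Ran. Exportins pick up cargo together with GTP-bound Ran inside the nucleus and let it go in the cytoplasm, whereas importins take up cargo in the cytoplasm and release it when they meet GTP-bound Ran in the nucleus. Mislocalized RNA-binding proteins and impaired nucleocytoplasmic transport have been described in several forms of amyotrophic lateral sclerosis (ALS).

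Nuclei came from 12 mice aged 90 days, with 3 males and 3 females of either genotype. The SOD1G93A mice were B6.Cg-Tg(SOD1*G93A)1Gur/J, which carry many copies of a human SOD1 gene with an ALS mutation, and wild-type (WT) controls were C57BL/6J littermates without the transgene. Mice with an altered copy number were not enrolled. In each of the 3 batches (pools A, B and C), nuclei of 1 mouse of every sex and genotype were labelled with hashtags, antibodies against nuclear pore complex proteins that carry a barcode, and were mixed. The same hashtag marked the same sex and genotype in every pool, so hashtag and group cannot be told apart.

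The table held 14662 nuclei and 206486779 unique molecular identifiers (UMIs, each a captured RNA molecule), with 548 to 2259 nuclei per mouse and a median of 9434 UMIs per nucleus. Sod1 reads, which can include transgene reads, were at 174 to 594 CPM (counts per 1000000 UMIs) over all nuclei of the SOD1G93A mice and at 31.2 to 106 CPM in the WT mice, so each mouse matched its genotype label. A barcode was found in 2 pools 15 times, and leaving out those 30 nuclei changed no call below. The deposited motor neurons had 1097 to 1649 CPM of the summed motor neuron markers Slit3, Prph and Chat in WT mice and 680 to 2422 CPM in SOD1G93A mice, against 61.9 to 123 CPM in the other neurons. Cell types are named as deposited. The markers go against the name microglia, since those nuclei had more neuron markers (386 to 644 CPM in WT, 446 to 618 CPM in SOD1G93A) than microglial ones (46.6 to 91.2 CPM and 38.8 to 122 CPM), and they are called nuclei deposited as microglia.

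Xpo1 encodes exportin 1, also called CRM1, the main export receptor for proteins with a leucine-rich nuclear export signal. It lies on the plus strand of chromosome 11 at chr11:23256041-23298249 (GRCm38, ENSMUSG00000020290.14), a span of 42.2 kb with introns, which were counted because the reads were mapped to pre-mRNA. The 250 bases before its start, chr11:23255791-23256040 on the plus strand (RefSeq, GRCm38.p6), are shown because the results turn on the level of this transcript. Capitals mark the letters CCAAT and GGGCGG.

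Xpo1 promoter: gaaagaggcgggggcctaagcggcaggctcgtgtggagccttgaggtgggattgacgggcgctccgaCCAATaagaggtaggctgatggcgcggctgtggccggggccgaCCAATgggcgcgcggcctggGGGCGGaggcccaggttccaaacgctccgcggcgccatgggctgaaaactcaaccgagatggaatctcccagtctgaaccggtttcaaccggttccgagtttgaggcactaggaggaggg

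Of 5 motifs searched on both strands, CCAAT was found 2 times and GGGCGG once, and TGACGTCA, GAANNTTC and TGANTCA were not found. The motifs were present in 34.5%, 32.9%, 1.62%, 6.78% and 6.87%, in that order, of 27025 mouse promoters of the same length. A promoter was matched for 7 of the 10 receptors, and none was matched for Xpo4, Xpo7 and Cse1l. CCAAT was also found in the promoters of Xpo6 (1 match) and Kpnb1 (3 matches), and GGGCGG in those of Xpo5 (1), Xpo6 (3), Tnpo1 (4) and Kpnb1 (2). GAANNTTC had 1 match each in Tnpo1 and Ipo7. These are matches of letters and no evidence of binding.

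Over all nuclei of both genotypes, Xpo7 had 31403 UMIs, Tnpo1 26428, Xpo1 19290, Tnpo3 18478, Xpo6 16413 and Xpo4 10855. Ipo7 had 7923 UMIs, Cse1l 5733, Kpnb1 4035 and Xpo5 3389. Longer genes give more intronic reads, so levels between genes are compared per kilobase of gene. On that scale Xpo1 was the highest of the 10 with 2.21 CPM per kb, followed by Tnpo1 (1.46), Xpo7 (1.35), Tnpo3 (1.30) and Ipo7 (1.00), and Xpo5 was the lowest (0.402). Neurons other than motor neurons gave 12612 of the Xpo1 UMIs, or 65.4%.

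For the comparison of genotypes, UMIs were summed per gene and mouse within a cell type, and each gene was fitted with limma-voom with a term per sex and genotype group and a term per pool. The genotype difference is the mean log2 difference of the 2 sexes, and a gene was called at a false-discovery rate (FDR, Benjamini-Hochberg over all genes of that type) below 0.1. Values per mouse are scaled CPM, that is CPM of the genes tested after TMMwsp scaling. In such sums, more RNA of a gene in every nucleus and a changed mixture of nuclei cannot be told apart.

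In neurons, the WT mice had 68.4 to 77.4 scaled CPM of Xpo1 (median 72.2) and the SOD1G93A mice 95.6 to 118 (median 109.6). Each SOD1G93A mouse was above each WT mouse, and the spread within a genotype was small (72.5 ± 2.89 and 108 ± 7.44, mean ± SD, n = 6). The difference was 0.58 on the log2 scale (SE 0.06, 95% interval 0.44 to 0.71), or 1.49-fold (1.35 to 1.64). Of the 15681 genes tested in neurons limma called 4 (0.0255%), and 17 (0.108%) had all SOD1G93A mice above all WT mice. Xpo1 was among both, and nothing is read from this, since the gene was chosen for its values in these nuclei. It was higher in 6 of 6 pairs of mice of the same sex and pool. Within pools, the mean log2 difference was 0.52 in pool A, 0.56 in pool B and 0.66 in pool C. The summed neuron markers Grin1, Rbfox3 and Camk2a lay at 736 to 852 CPM in WT neurons and 740 to 863 CPM in SOD1G93A neurons. In the same nuclei 8 stress and immediate early genes had summed medians of 10.2 CPM in WT and 12.9 CPM in SOD1G93A mice, higher in 5 of 6 pairs. The median percent of mitochondrial reads lay at 0.116 to 0.264% and 0.106 to 0.258%. Their part in the Xpo1 difference was not tested.

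**Figure D1:**
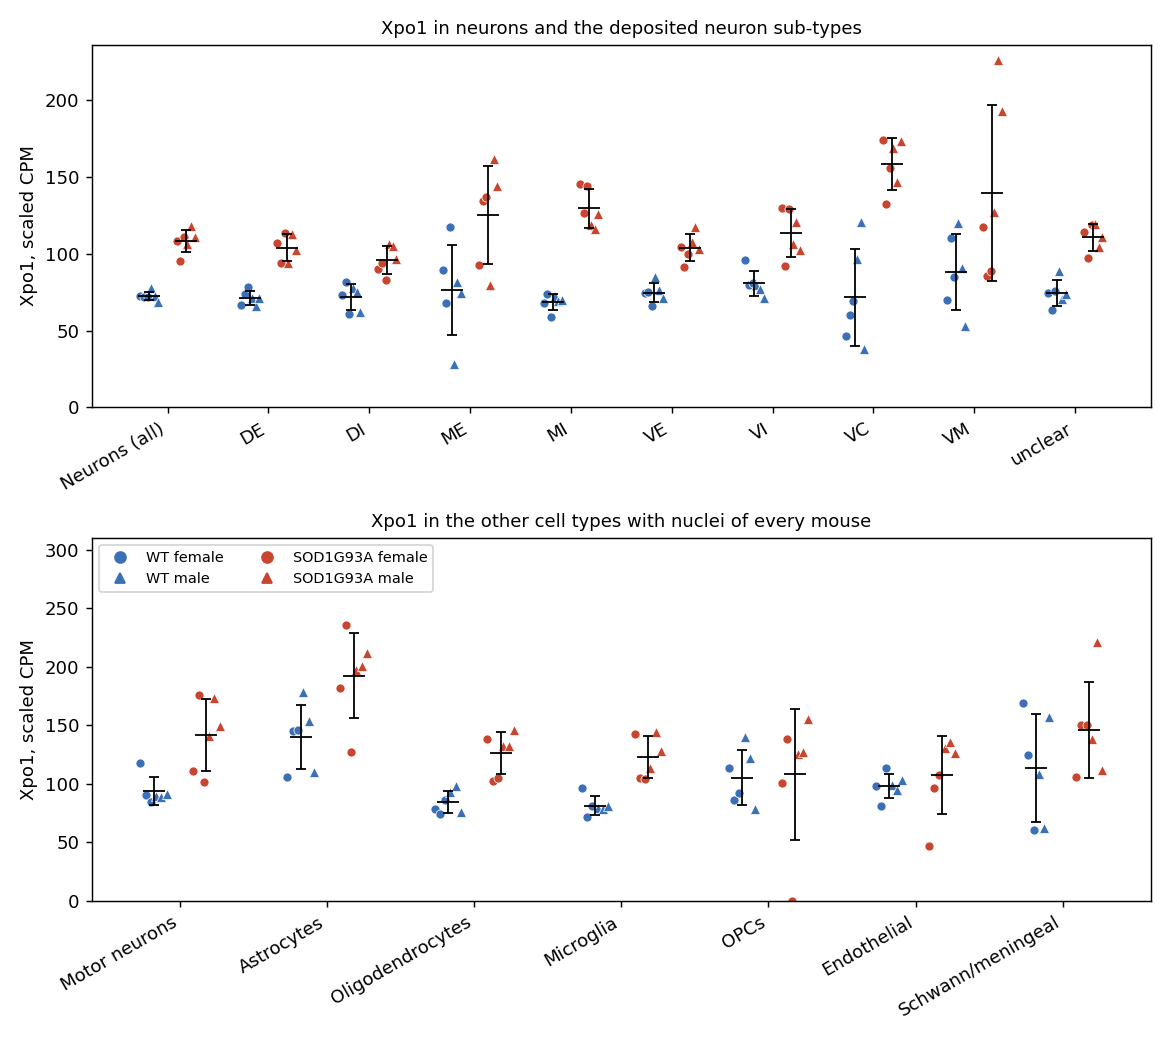
Xpo1 in scaled CPM (y axis) in every mouse for neurons and their sub-types (top) and for other cell types (bottom), with circles for females, triangles for males, blue for WT, red for SOD1G93A, and bars for the mean ± SD. In neurons the WT mice lie at 68.4 to 77.4 and the SOD1G93A mice at 95.6 to 118, and the oligodendrocyte precursor cells (OPCs) of 1 SOD1G93A mouse are at 0.

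The 9 deposited neuron sub-types divide the neurons by position and transmitter, namely dorsal excitatory (DE), dorsal inhibitory (DI), mid excitatory (ME), mid inhibitory (MI), ventral excitatory (VE), ventral inhibitory (VI), ventral cholinergic non motor neurons (VC), ventral mixed (VM) and unclear. The fitted Xpo1 difference was positive in each, from 0.41 in DI to 1.08 in VC, with a median of 0.53. These nuclei are the ones summed in neurons, so the sub-types do not add to the value above.

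The 2 largest differences were in VC and MI neurons. In VC neurons the WT mice spread from 37.7 to 121 scaled CPM (median 64.4), and the SOD1G93A mice lay at 132 to 174 (median 162). The difference was 1.08 (SE 0.20), from 15 to 54 nuclei per WT mouse and 14 to 39 per SOD1G93A mouse. The cholinergic name was checked with Chat, Slc5a7 and Slc18a3, and their summed level was low and uneven in these nuclei (13.7 to 193 CPM in WT, 8.4 to 192 CPM in SOD1G93A). In MI neurons the WT mice were at 58.7 to 74.0 (median 69.6) and the SOD1G93A mice at 116 to 145 (median 126), a difference of 0.89 (SE 0.13), or 1.86-fold. Neither sub-type had an overlap between the genotypes, and the pool means in MI neurons were 0.90, 0.76 and 1.08.

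Smaller differences were found in the larger sub-types. In DE neurons Xpo1 went from 65.9 to 78.4 scaled CPM (median 71.0) in WT mice to 94.0 to 114 (median 105) in SOD1G93A mice. In VE neurons the ranges were 66.2 to 84.9 (median 74.7) and 91.3 to 118 (median 104). In DI neurons they were 61.1 to 81.9 (median 74.2) and 83.2 to 107 (median 95.4). The genotypes were separate in these 3 sub-types and in the unclear neurons (63.4 to 89.1, median 74.4, and 97.3 to 119, median 113). The log2 differences were 0.53 in DE, 0.47 in VE, 0.41 in DI and 0.58 in unclear neurons, with SEs of 0.08 to 0.10.

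In VI, ME and VM neurons the genotypes overlapped. VI neurons had 71.4 to 95.8 scaled CPM in WT (median 79.5) and 92.0 to 130 in SOD1G93A (median 113), a difference of 0.49 (SE 0.13). ME neurons, with 5 to 30 nuclei per mouse, had 28.0 to 117 (median 78.2) and 79.6 to 162 (median 136), a difference of 0.76 (SE 0.26). VM neurons, with 1 to 36 nuclei per mouse, had 53.0 to 120 (median 87.7) and 85.6 to 226 (median 122), and their difference of 0.42 had an interval of -0.08 to 0.93. Genes called by genotype made up 0.0329% of those tested in DE, 0.019% in DI, 0% in ME, 0.06% in MI, 0.00871% in VE, 0.0231% in VI, 0.0296% in VC, 0.0243% in VM and 0.027% in unclear neurons. Genes higher in every SOD1G93A mouse than in every WT mouse made up 0.14% in DE, 0.105% in DI, 0.12% in MI, 0.0871% in VE, 0.0888% in VC and 0.063% in unclear neurons. Among the 10 receptors, only Xpo1 had sub-types without overlap. Nothing is read from this, since Xpo1 was chosen for its rise in these sub-types.

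The same UMIs can be given as the share of nuclei with an Xpo1 UMI, which is a description and no separate support. Each nucleus was thinned to 5000 UMIs so that depth was equal, which left out 345 shallower WT neurons of 5724 and 250 SOD1G93A neurons of 3076. At that depth 27.3 to 32.4% of WT neurons (29.3% ± 2.01, n = 6 mice) and 37.2 to 42.3% of SOD1G93A neurons (39.6% ± 1.66, n = 6) had an Xpo1 UMI. Without thinning the means were 56.6% and 68.2%. The nucleus with the most Xpo1 held at most 7.41% of the Xpo1 UMIs of the neurons of a mouse. In sub-types of SOD1G93A mice 1 nucleus held more, up to 36.4% in MI, 47.3% in VC, 69.2% in VI and 100% in VM neurons. The thinned share went from 27.6% to 41.8% in MI and from 28.3% to 51.6% in VC neurons, where the SOD1G93A mice were at 47.7 to 59.1%. No cell type of this tissue was known to lack Xpo1, so a background share could not be measured.

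**Figure D2:**
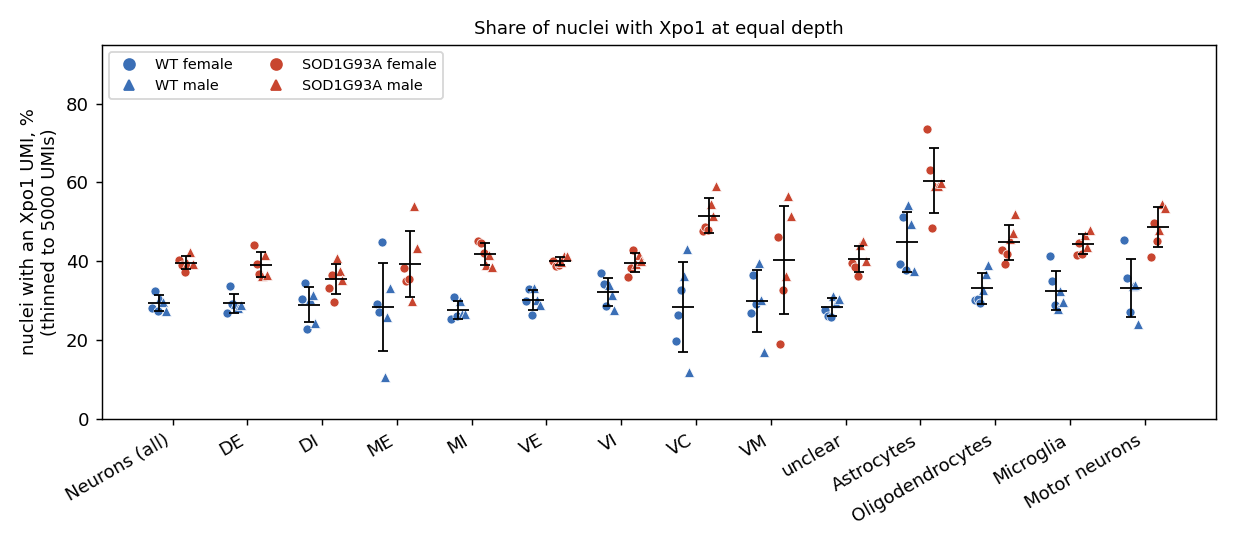
Percent of nuclei with at least 1 Xpo1 UMI (y axis) after thinning to 5000 UMIs, per mouse, in neurons, sub-types and 4 other cell types, with colours, symbols and bars for WT and SOD1G93A females and males and the mean ± SD. Neurons lie at 27.3 to 32.4% in WT mice and at 37.2 to 42.3% in SOD1G93A mice. Nuclei under 5000 UMIs were left out, among them 426 of 927 WT and 262 of 628 SOD1G93A astrocytes. In oligodendrocytes these were 434 of 1200 WT and 438 of 965 SOD1G93A nuclei.

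Motor neurons, astrocytes and the other cell types are nuclei that the choice of Xpo1 did not use, although they come from the same mice. In motor neurons, the cells that are lost in ALS, the WT mice had 84.7 to 118 scaled CPM of Xpo1 (median 90.0) and the SOD1G93A mice 102 to 176 (median 145). Of the WT mice 5 lay at 84.7 to 91.5, below each SOD1G93A mouse, and the WT female of pool A lay at 118, above 2 of the SOD1G93A mice. The difference was 0.68 (SE 0.20, interval 0.27 to 1.10), or 1.60-fold, and limma called it with an FDR of 0.0928, where 3.07% of the 5118 genes tested were called. The call was lost with edgeR's quasi-likelihood test (FDR 0.176), DESeq2 (FDR 0.207), no pool term (limma FDR 0.119) and no count filter (limma FDR 0.436). With the limma fit no other receptor was called outside neurons. It was higher in 5 of 6 pairs, with mean log2 differences of 0.28, 0.97 and 0.49 in pools A, B and C.

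The motor neuron call rests on few nuclei, 4 to 11 per WT mouse and 1 to 6 per SOD1G93A mouse, with 199 and 206 Xpo1 UMIs in all. Leaving out any 1 of the 12 mice ended it, with FDRs of 0.106 to 0.330 and log2 differences of 0.49 to 0.76 (limma). The SOD1G93A female of pool C had 1 nucleus with 3 Xpo1 UMIs. Stress and immediate early genes in motor neurons lay at 5.93 to 19.5 CPM in WT and at 25.7 to 325 CPM in SOD1G93A mice, higher in 6 of 6 pairs. The median percent of mitochondrial reads was 0.0358 to 0.162% in WT and 0.0354 to 2.03% in SOD1G93A mice, higher in 4 of 6 pairs. The part of both in the difference was not tested.

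In the nuclei deposited as microglia, the WT mice had 71.4 to 96.6 scaled CPM of Xpo1 (median 80.4) and the SOD1G93A mice 104 to 145 (median 121). The groups did not overlap, as for 0.25% of the genes in that direction. The difference of 0.58 (SE 0.12) missed the threshold with an FDR of 0.106 by limma, where 0.0759% of genes were called. It was higher in 6 of 6 pairs. These nuclei were few, 6 to 41 per WT mouse and 5 to 28 per SOD1G93A mouse. In them 1 nucleus held up to 67.6% of the Xpo1 UMIs of a WT mouse and up to 81.8% of those of a SOD1G93A mouse. The FDR was 0.0185 without the WT female of pool A, 0.0941 without the SOD1G93A female of pool A and 0.0815 without the SOD1G93A male of pool C. The microglial markers had medians of 57.5 CPM in WT and 110.1 CPM in SOD1G93A mice (higher in 5 of 6 pairs), against 11.9 and 14.4 CPM in neurons. The neuron markers lay at medians of 490 and 536 CPM. Their part in the Xpo1 difference was not tested.

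In oligodendrocytes, the myelin-forming cells, Xpo1 was at 74.6 to 97.8 scaled CPM (median 82.2) in WT and at 103 to 146 (median 132) in SOD1G93A mice. The groups did not overlap, as for 0.124% of genes. The difference of 0.56 (SE 0.11) was not called (limma FDR 0.203, 0.0475% of genes called), and it was higher in 6 of 6 pairs.

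In astrocytes, which support neurons and take up glutamate, Xpo1 was at 106 to 178 scaled CPM (median 145) in WT and at 127 to 235 (median 199) in SOD1G93A mice. The groups overlapped, and the difference of 0.46 (SE 0.14) was not called (limma FDR 0.132), in a type where 2.29% of genes were. It was higher in 5 of 6 pairs, and the exception was the female pair of pool C, with -0.20. The FDR fell under the threshold without the WT male of pool A (0.0892), the SOD1G93A female of pool C (0.0963) or the SOD1G93A male of pool B (0.0995). In the same nuclei the astrocyte markers were at 867 to 1122 CPM in WT and 1672 to 2225 CPM in SOD1G93A mice. The stress genes were at 20.6 to 51.1 CPM and 39.7 to 126 CPM, and the neuron markers at medians of 141 and 188 CPM, each higher in 6 of 6 pairs. The median percent of mitochondrial reads per nucleus was 0.570 to 1.31% in the WT and 1.12 to 2.33% in the SOD1G93A mice, also higher in 6 of 6 pairs. Their part was not tested.

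The other cell types showed smaller or less certain values. Schwann and meningeal cells had 60.4 to 169 scaled CPM in WT (median 117) and 106 to 221 in SOD1G93A (median 144), a difference of 0.27 (interval -0.26 to 0.80, 0.036% of genes called). Endothelial cells had 80.9 to 113 (median 98.5) and 46.4 to 136 (median 117), a difference of 0.11 (interval -0.28 to 0.50, 0.0131% called). OPCs, the precursors of oligodendrocytes, had 78.7 to 139.9 (median 103) and 0 to 156 (median 126), a difference of 0.14 (interval -0.33 to 0.60, 0.0411% called). These 3 differences were not called (limma FDRs 0.999, 0.985 and 0.957), and each interval includes no difference. In ependymal cells Xpo1 was the only receptor that passed the count filter, on 45 WT UMIs and 42 SOD1G93A UMIs. It was at 82.7 to 371 CPM (median 188) and 155 to 1042 CPM (median 640.4) without scaling, and its difference of 1.20 (SE 0.48) in 5 WT and 6 SOD1G93A mice was not called (limma FDR 0.483). Xpo1 passed the filter there only through SOD1G93A mice, where it was higher, so nothing is read from this difference. In fibroblasts none of the 10 passed.

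The other exportins differed less between the genotypes of neurons than the SOD1G93A mice did among themselves. Xpo4, which exports the translation factor Eif5a among others, was at 52.9 to 54.8 scaled CPM in WT (median 54.0) and 44.7 to 57.8 in SOD1G93A neurons (median 50.9), a difference of -0.07 (SE 0.07). Xpo5, which exports microRNA precursors, was at 15.4 to 22.2 (median 17.1) and 15.3 to 19.5 (median 17.7), a difference of -0.04 (SE 0.08). Xpo6, the exporter of actin bound to profilin, was at 69.7 to 100.2 (median 84.9) and 72.5 to 103 (median 84.4), a difference of 0.02 (SE 0.09). In each of these 3 genes the WT and SOD1G93A ranges lay over each other. Xpo7, an exporter of folded proteins that need no leucine-rich signal, was at 146 to 159 (median 153) and 143 to 161 (median 159), a difference of 0.03 (SE 0.06). Cse1l, which returns importin alpha to the cytoplasm, was at 25.9 to 30.8 (median 26.6) and 22.8 to 31.1 (median 27.6), a difference of 0.01 (SE 0.09).

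The importins in neurons also differed by less than the spread between the SOD1G93A mice. Kpnb1 encodes importin beta 1, the partner of importin alpha in the import of proteins with a classical signal. It was at 15.1 to 17.4 scaled CPM (median 16.3) in WT and 14.6 to 21.9 (median 17.7) in SOD1G93A neurons, a difference of 0.14 (interval -0.07 to 0.35). Ipo7, an importer of ribosomal proteins and linker histones, was at 33.4 to 38.2 (median 35.0) and 30.9 to 39.7 (median 37.5), a difference of 0.04 (SE 0.07). Tnpo1, an importer of RNA-binding proteins with a proline-tyrosine signal, was at 116 to 148 (median 129.8) and 117 to 134 (median 126), a difference of -0.04 (SE 0.07). Tnpo3, which imports splicing factors rich in serine and arginine, was at 80.9 to 97.5 (median 87.1) and 78.5 to 94.3 (median 89.2), a difference of 0.01 (SE 0.06). None of the 9 was called in neurons or had an unadjusted p below 0.05 by limma, where 0.0255% of all genes were called and 4.16% had such a p. Their 95% intervals lay between -0.22 and 0.35.

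**Figure D3:**
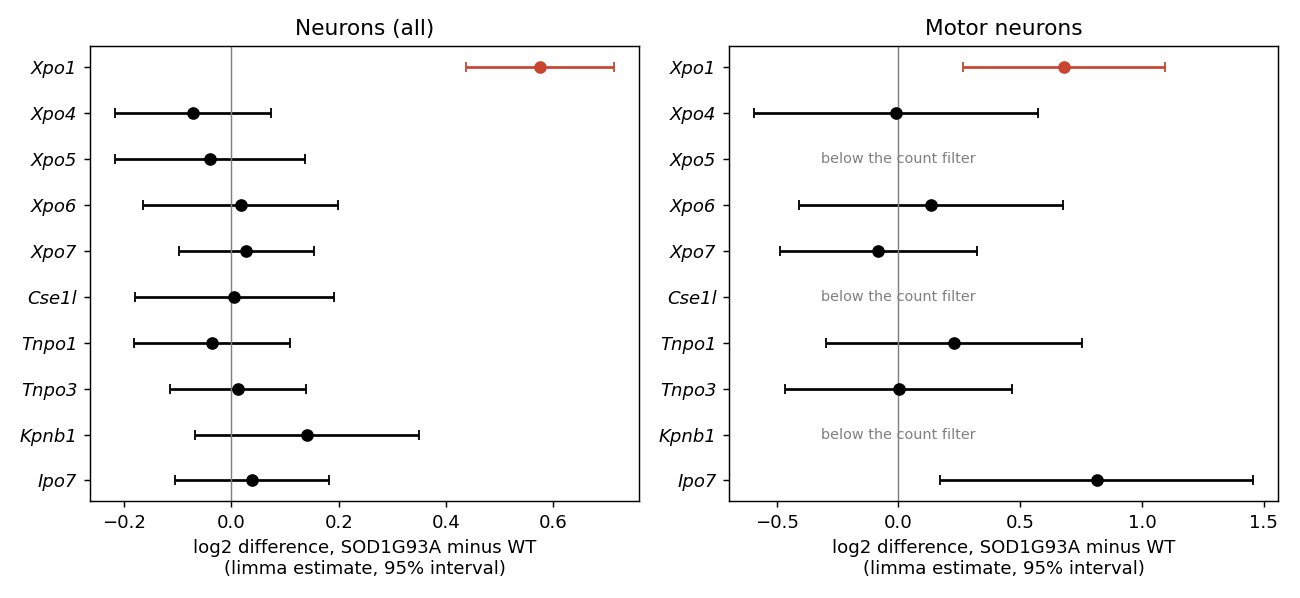
Log2 difference, SOD1G93A minus WT (x axis, limma estimate with its 95% interval), of each receptor in neurons (left) and motor neurons (right), with Xpo1 in red. In neurons the 9 other receptors lie from -0.07 to 0.14 and Xpo1 at 0.58, and in motor neurons 3 receptors were below the count filter.

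Across the sub-types, 0 of 74 limma tests of the 9 other receptors were called and 0 had an unadjusted p below 0.05, where 0.0252% of the tests of all genes were called and 4.54% had such a p. The differences lay between -0.60 and 0.43. The lowest was Xpo5 in MI neurons, the sub-type with one of the largest Xpo1 differences. It was at 15.3 to 42.5 scaled CPM (median 21.3) in WT and 4.22 to 25.3 (median 16.7) in SOD1G93A mice, with 99 and 40 UMIs. The groups overlapped and the interval of the difference ran from -1.26 to 0.06. The highest was Xpo4 in VM neurons at 0.43. Neither gene would have passed the count filter in that sub-type without the genotype where it was higher, so nothing is read from these extremes. In ME neurons 6 of the 10 receptors passed the filter and in VM neurons 7, while in the other sub-types all 10 did.

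In the cell types other than neurons, 0 of 56 limma tests of the 9 other receptors were called, against 0.728% of the tests of all genes, and 28 of the 56 differences were positive. The filter was passed by all 10 receptors in astrocytes, oligodendrocytes and the nuclei deposited as microglia, by 9 in endothelial and in Schwann and meningeal cells, by 8 in OPCs and by 7 in motor neurons. Over all sets where they passed, Ipo7 ran from -0.20 to 0.82 (16 sets) and Tnpo1 from -0.24 to 0.23 (17 sets). The sets and the counts differ between genes, so the spans are not ranked. In astrocytes the differences were -0.33 for Xpo5, -0.20 for Kpnb1, -0.13 for Tnpo3 and 0.16 for Tnpo1, each with an interval that includes 0. Xpo5 would not have passed the count filter there without the WT mice, where it was higher, so nothing is read from its difference.

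Ipo7 in motor neurons was the single test of these 56 with an unadjusted p below 0.05, where 8.07% of the tests of all genes in these cell types and 15.9% of those in motor neurons had such a p. The WT mice were at 19.6 to 54.9 scaled CPM (median 30.3) and the SOD1G93A mice at 24.2 to 86.0 (median 52.0). The groups overlapped, with 1 WT mouse above 4 of the SOD1G93A mice, and Ipo7 was higher in 5 of 6 pairs. The difference was 0.82 (SE 0.31), with an FDR of 0.190 by limma. Without the WT female of pool B it was 1.10 with an FDR of 0.0998. The counts were small, between 2 and 27 UMIs per mouse. Ipo7 would not have passed the count filter here without the SOD1G93A mice, where it was higher, so nothing is read from this difference. The same motor neurons had differences of -0.08 for Xpo7, 0.23 for Tnpo1 and 0.00 for Tnpo3.

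**Figure D4:**
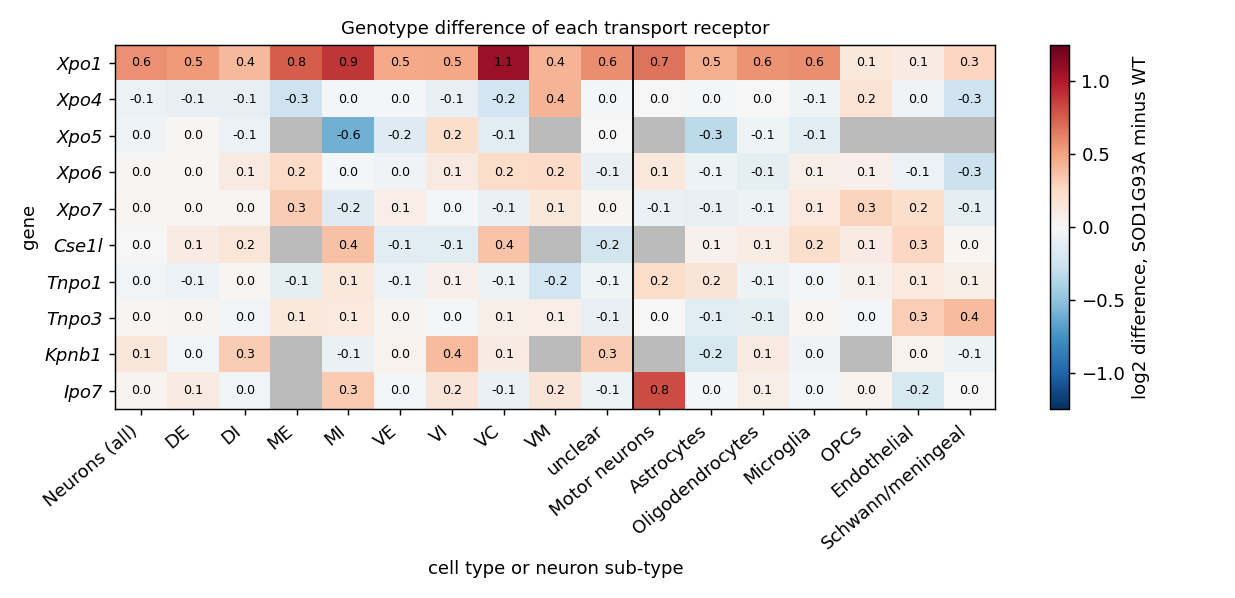
Log2 difference, SOD1G93A minus WT, of the 10 receptors (rows) in neurons, sub-types and 7 other cell types (columns), with red for higher and blue for lower in SOD1G93A and grey where the gene did not pass the count filter. The Xpo1 row is red throughout, from 0.11 to 1.08, and the other rows hold both signs.

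Males and females were compared in the same fits. Of 157 tests of the 10 receptors, 0 were called by sex with limma and 1 had an unadjusted p below 0.05 (Xpo5 in neurons, 0.18 higher in females, FDR 1.00), where 0.125% of 144443 tests of all genes were called and 5.13% had such a p. For the difference of the genotype effects, males minus females, 0 of 157 were called and 1 had an unadjusted p below 0.05 (Tnpo3 in oligodendrocytes, 0.50, FDR 1.00), where 0.0436% of all tests were called and 3.62% had such a p. The Xpo1 genotype difference in neurons was 0.62 in males and 0.53 in females. In motor neurons it was 0.78 and 0.58, in the nuclei deposited as microglia 0.66 and 0.51, in oligodendrocytes 0.60 and 0.52, and in astrocytes 0.46 and 0.45. The least alike values were those of VM neurons, 0.89 in males and -0.05 in females, a difference that was not called (limma FDR 0.993).

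The Ran cycle drives the receptors, and 0 of its 5 named genes were called in neurons by limma or had an unadjusted p below 0.05. Over all genes tested in neurons 0.0255% were called and 4.16% had such a p. Ran itself was at 3.76 to 4.86 scaled CPM (median 3.96) in WT and 2.90 to 6.27 (median 3.31) in SOD1G93A neurons, a difference of -0.05 (SE 0.16). Rangap1, which makes Ran hydrolyse GTP at the pore, was at 34.7 to 38.3 (median 37.0) and 29.2 to 39.6 (median 34.8), a difference of -0.07 (SE 0.08). Rcc1, which reloads Ran with GTP on chromatin, differed by -0.05 (SE 0.13), Ranbp1 by -0.08 (SE 0.12), and Ranbp3, a cofactor of exportin 1, by 0.00 (SE 0.09). The genotypes overlapped in all 5.

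The wider list held 74 other nuclear transport genes, of which 72 passed the filter in neurons. Their median difference there was -0.00, as over all genes (0.00), and they lay between -0.19 and 0.19. Over the 19 cell types and sub-types, 0 of 806 limma tests were called and 20 (2.48%) had an unadjusted p below 0.05. Over all genes in the same sets 0.285% of 144443 tests were called and 5.8% had such a p. By role, the tests with p below 0.05 were 4 of 197 for other receptors, 6 of 112 (5.36%) for the Ran cycle, 2 of 164 for mRNA export and 8 of 333 for nucleoporins. The lowest FDR was that of Ranbp1 in astrocytes. It was at 6.64 to 30.7 scaled CPM (median 16.7) in WT and 11.7 to 35.2 (median 29.5) in SOD1G93A mice, higher in 6 of 6 pairs, with a difference of 0.76 (SE 0.29) and a limma FDR of 0.221. In the same nuclei Ran was at 5.49 to 16.8 (median 8.72) and 11.5 to 20.2 (median 16.6), higher in 6 of 6 pairs, with a difference of 0.67 and a limma FDR of 0.286. Ran would not have passed the count filter there without the SOD1G93A mice, so nothing is read from its difference. Both genes overlapped between the genotypes.

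The genes beside Xpo1 on chromosome 11 were fitted in the same way. Usp34, the next gene downstream on the same strand, which encodes a deubiquitinase, had a difference of -0.00 (SE 0.06) in neurons, 0.01 in MI neurons and -0.02 in astrocytes. Among the genes within 500 kb that were tested in neurons, the differences ran from -0.30 (Fam161a) to 0.05 (Pex13). None was called by limma, where 0.0255% of all genes were. In astrocytes 3 neighbours had differences above that of Xpo1 (0.46, SE 0.14). They were Rel with 0.71 (SE 0.26), Zrsr1 with 0.58 (SE 0.34) and B3gnt2 with 0.48 (SE 0.57). The other neighbours tested in astrocytes ran from -0.24 (Pus10) to 0.33 (Ahsa2). No neighbour was called there by limma, where 2.29% of all genes were.

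The levels of the receptors across cell types were compared in the 6 WT mice, as CPM without scaling, which is the share of all UMIs of a type. Among the 8 types with nuclei of every mouse, Xpo1 was highest in astrocytes (133 ± 28.1 CPM, mean ± SD, n = 6), followed by Schwann and meningeal cells (101 ± 36.2), endothelial cells (93.3 ± 9.60), OPCs (92.3 ± 20.5), oligodendrocytes (82.8 ± 9.28), motor neurons (82.1 ± 12.5), nuclei deposited as microglia (78.6 ± 7.18) and neurons (72.2 ± 5.96). Ependymal cells, with nuclei of 5 WT mice and 45 Xpo1 UMIs, were at 218 ± 119 CPM and are not in this order, nor are fibroblasts. No neighbours in this order differed by more than the SD of their difference. The order holds for CPM without scaling. Scaled across cell types, the means were 101.1 CPM in motor neurons, 95.3 in oligodendrocytes, 89.4 in neurons and 74.1 in endothelial cells, so that neurons lay above endothelial cells. In the sub-types the means ran from 65.3 CPM in MI to 78.5 CPM in VM neurons, and there too no neighbours differed beyond the SD.

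Neurons were set against astrocytes, oligodendrocytes and motor neurons of the same mice with an exact paired permutation test. With 6 mice the smallest p is 0.03125, and after adjustment over 30 tests 0 passed 0.05, since the 10 at the smallest p had an adjusted p of 0.0938. Xpo1 was lower in neurons than in astrocytes in 6 of 6 mice, by a mean log2 difference of -0.84 (SD 0.22), and lower than in motor neurons in 6 of 6 mice, by -0.17 (SD 0.22). Kpnb1 was also lower in neurons than in astrocytes in 6 of 6 mice (-0.53, SD 0.32). Xpo6 went the other way, higher in neurons than in astrocytes in 6 of 6 mice (0.56, SD 0.15), and so did Xpo7 (0.22, SD 0.14). Tnpo1 was higher in neurons than in motor neurons in 6 of 6 mice (0.75, SD 0.46), with means of 129.0 and 78.7 CPM. Tnpo3 was at 87.3 ± 1.58 CPM in neurons, 86.8 ± 18.2 in astrocytes and 85.8 ± 5.83 in motor neurons.

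**Figure D5:**
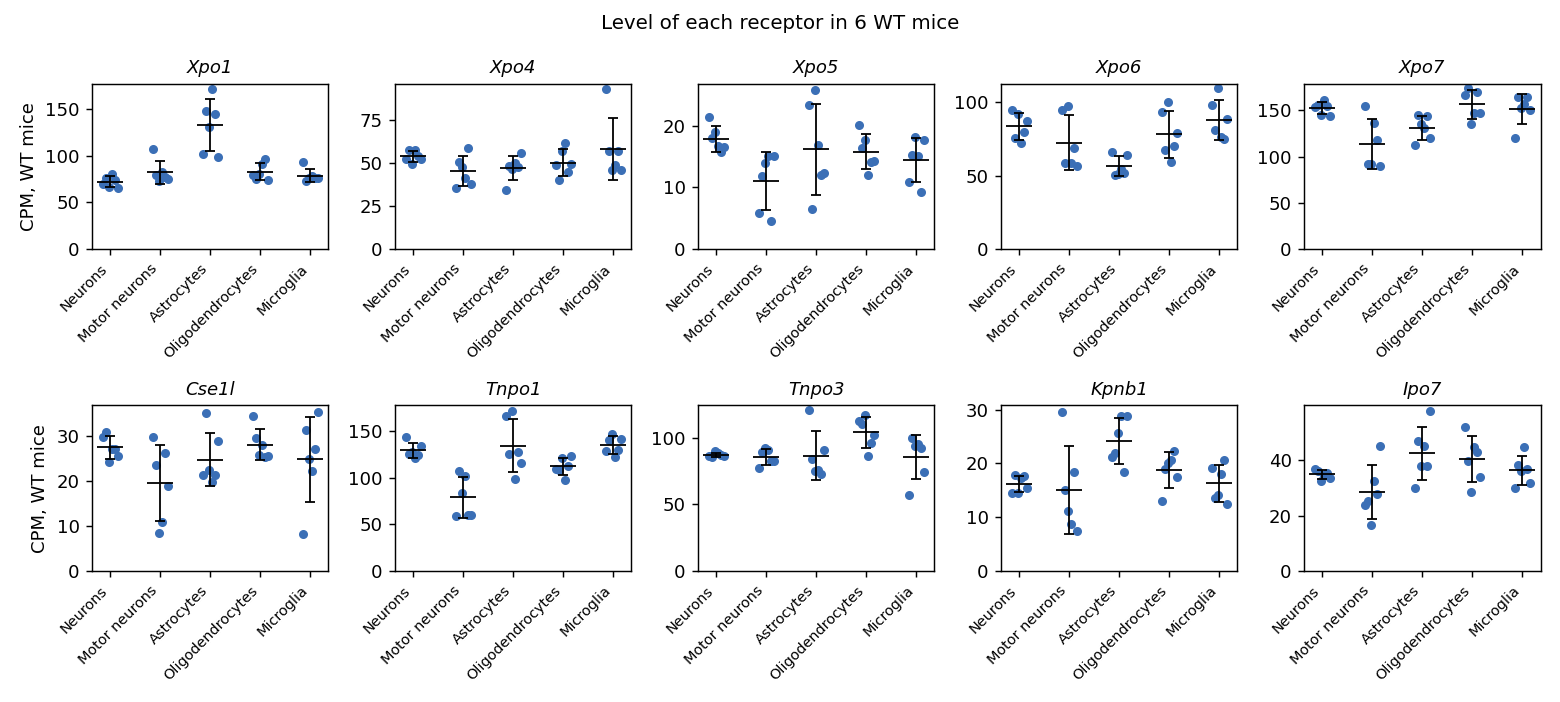
Level of each receptor in CPM (y axis, from 0) in 5 cell types, with a point for each of the 6 WT mice and the mean ± SD. Xpo1 is highest in astrocytes (133 ± 28.1 CPM), and Xpo6 is lower in astrocytes than in neurons.

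The genes whose level across 16 cell types and sub-types was most like that of Xpo1, among 6764 genes with a mean of at least 20 CPM, were Cd38 (Pearson r 0.90), Ptch1 (0.90), Lifr (0.89), Slc7a2 (0.89) and Glud1 (0.89). The 16 points share mice, depth and pools, and r is a description. By Spearman rho only Lifr (0.91) was among the first 5. Of the receptors, Ipo7 (r 0.48) and Kpnb1 (0.47) were most like Xpo1, and Xpo7 (-0.58) and Xpo6 (-0.62) least. Xpo5 was below the level needed.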

How the data were processed

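Single nuclei of the lumbar spinal cord of 12 mice were sequenced in 3 pools. The authors counted UMIs with Cell Ranger 3.1 (STAR 2.5.1b) on an mm10 pre-mRNA reference, and these deposited counts have no normalization. Per the labels and methods, the authors assigned nuclei to mice by hashtag and removed nuclei with under 200 genes, over 10% mitochondrial reads or several hashtags, while doublets within a mouse are not marked. The deposited mitochondrial percent values of nuclei were used as a measure of quality, and the deposited table of normalized values was not used. Genotype, sex, pool, cell type and neuron sub-type are those of the deposited table of nuclei, and sub-types exclude 27 neurons that had no assigned one.

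Sums per mouse were tested with limma 3.58.1 and edgeR 4.0.16 (filterByExpr with a minimum count of 10, TMMwsp factors, voom, a pool term and robust eBayes). In simulated counts these fits mostly gave the right direction of known changes. The simulation had no pool effect, and its changes were larger than most of those found here. It therefore does not show how well smaller changes are recovered. The robust option is not named in the methods. UMI counts limit the precision where nuclei are few. The pool is the labelled batch, and neurons of 1 pool deviated together (median r 0.229, with 12 of 18 pairs above 0.1). Deviations from the mean of a sex and genotype group cancel over its pools, so the -0.131 between pools is no separate result. Genes named are the 10 receptors, 5 Ran cycle genes, every called gene of the other transport list and the 5 genes most like Xpo1, while other genes were named after their values were seen. The members, lists and tests were chosen with earlier results of these data known. The alternatives tried were edgeR's quasi-likelihood test, DESeq2 1.42.0, other scalings, filters and depths, no pool term and each mouse left out. Some values of marker genes are not reported here.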

Additional observations from a re-analysis of the deposited data

Results flagged for a closer look

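Xpo1 in each cell type, and the other receptors in neurons, were searched for mice far from the rest of their genotype, and 2 of 53 groups of 6 mice held such a mouse, where chance gives about 1 in 20. In motor neurons, the WT female of pool A was at 118 scaled CPM of Xpo1, and the other WT mice lay between 84.7 and 91.5 (Dixon's ratio 0.794). It had 7 motor neuron nuclei and 18 Xpo1 UMIs. In OPCs, the SOD1G93A female of pool C was at 0 scaled CPM, and the other SOD1G93A mice lay between 101 and 156 (Dixon's ratio 0.648). That mouse had 2 OPC nuclei with 11083 UMIs in all.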

How the results depend on the processing

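The Xpo1 difference in motor neurons kept its direction and lost its call with edgeR's quasi-likelihood test (0.67, FDR 0.176), DESeq2 (0.68, FDR 0.207), without the replicate block, that is the pool term (0.67, FDR 0.119), and without the count filter (0.53, FDR 0.436). It was also lost without the mice with under 4 nuclei, an alternative chosen after seeing the data (0.79, FDR 0.276), and without each of the 12 mice (0.49 to 0.76). Xpo1 in the nuclei deposited as microglia passed the threshold with edgeR (0.58, FDR 0.0956), DESeq2 (0.59, FDR 0.0644), unscaled library sizes (0.59, FDR 0.0585) and a minimum count of 30 (0.59, FDR 0.0660). It also passed without the WT female of pool A (0.61), the SOD1G93A female of pool A (0.54) or the SOD1G93A male of pool C (0.57), with a range of 0.51 to 0.68 over the 12 mice left out. Xpo1 in astrocytes passed with unscaled library sizes (0.53, FDR 0.0581) and without the WT male of pool A (0.55), the SOD1G93A female of pool C (0.55) or the SOD1G93A male of pool B (0.51; range 0.33 to 0.55), and in oligodendrocytes with DESeq2 (0.56, FDR 0.0995). The causes were not tested.

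The count of receptors called outside neurons, 1 as reported, was 2 with DESeq2, 3 with unscaled library sizes, 0 without the replicate block, 0 without a filter, 2 with a minimum count of 30 and 0 to 1 when a mouse was left out. When a mouse was left out, a single call was Xpo1 in astrocytes or nuclei deposited as microglia, or Ipo7 in motor neurons. It was never Xpo1 in motor neurons. Without the replicate block no call changed for another receptor or cell type. Other receptors in sub-types, sex, the sex difference of the genotype effect, other transport genes and WT levels had counts of 0 under each alternative run. By Spearman rho, 1 of the 5 genes most like Xpo1 remained. Scaling across cell types moved 11 WT levels of Xpo1, that of neurons to 89.4 and that of endothelial cells to 74.1 CPM. In the 9 other receptors, uncalled differences changed sign in 204 of 1660 fits without a mouse and in 49 of 1348 others, and Xpo1 in OPCs was -0.00 without the SOD1G93A female of pool B. With 5 mice the level tests cannot reach an adjusted p of 0.05. Few nuclei per mouse limit the precision in motor neurons, nuclei deposited as microglia, OPCs, ependymal cells and fibroblasts.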
